A study of Homo sapiens with 4 samples.

Results

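The 10 genes described here encode signalling and cytoskeletal proteins of blood cells: LCP1, LAPTM5, CD53, BTK, PRKCB, PTPRC, VAV1, WAS, LYN and SPI1. They were chosen from measured values of these arrays, by symbol, because several of them had some of the highest K562 over HepG2 differences, and they are 10 of 14232 genes with a level. The study lowered ADAR, an RNA editing enzyme that turns adenosines of RNA duplexes into inosines, in both of these human cell lines to examine alternative splicing, and hybridised RNA to exon arrays. The K562 ADARkd array came from K562 cells stably carrying a plasmid with an siRNA against ADAR1, and the K562 SCR array from K562 cells stably carrying a plasmid with a scrambled siRNA. The arrays labelled HepG2 were made in the same way, 1 from ADARkd cells and 1 from SCR cells. K562 is a leukaemia line with erythroid features, grown in suspension, and HepG2 is a hepatocellular carcinoma line, grown attached. All 4 kinds of cell had a plasmid, so none of the arrays shows an untransfected cell, and the labels do not say whether a transfectant was a clone or a pool.

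Each group had 1 array, and nothing says that the arrays came from separate cultures, so precision is limited by the number of arrays and no difference has a test. Levels are log2 of the deposited intensity, a difference of 1 is 2-fold, and each level is compared only with the level of the same gene on another array. Over 17881 transcript clusters, the SD of the log2 levels of an array ran from 1.75 to 1.95. The targeted gene, ADAR, stood at 6.78 in ADARkd and 7.99 in SCR of K562, and at 7.27 in ADARkd and 8.96 in SCR of the arrays labelled HepG2, differences of -1.21 and -1.69. A gene was kept in a line when its mean over the line's 2 arrays reached the median of all genes, which was 5.28 in K562 and 5.31 on the arrays labelled HepG2. The erythroid list had 7 measured markers, of which K562 kept 4 and the arrays labelled HepG2 kept 0. Of 7 measured hepatocyte markers, 0 were kept in either line, with albumin (ALB) at 2.97 and 3.04 on the ADARkd and SCR arrays labelled HepG2, while K562 kept 1 of 10 fibroblast and stromal markers and the arrays labelled HepG2 kept 7. Of 6 epithelial markers, 4 were kept in each line, but not the same 4. EPCAM was kept in K562 alone, with a mean of 7.72 against 3.99 on the arrays labelled HepG2. KRT7 was kept on the arrays labelled HepG2 alone, with a mean of 9.37 against 4.12 in K562. The name HepG2 therefore stands here only for the label, and every line difference carries that limit.

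Receptors on blood cells signal through SRC family and Tec kinases, which phosphorylate adaptors and open the way to phospholipase C and protein kinase C. The same receptors act through WASP and actin bundlers to reshape the cortex under the membrane. Many genes of this kind are known targets of PU.1, the ETS factor encoded by SPI1, which binds purine-rich sites and which GATA1 antagonises in the erythroid lineage.

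A PU.1-type letter string was looked for in the RefSeq promoter windows of the table given for GRCh38.p14, which run from 250 bases before to 50 bases after a gene's start. Windows were found for 8 of the 10 genes (11 windows) and not for LYN and SPI1. The string GAGGAAGT, read on both strands, occurred in 4 of these 11 windows, against 2.59% of all 35116 windows. Counted by gene, it occurred in 4 of the 8, CD53, LCP1, VAV1 and BTK. The shares were 3.15% of all 27305 genes with a window and 3.65% of the 11386 genes that also had a level. The shorter string GAGGAA, which lies inside the longer one, occurred in 5 of the 8 genes, the fifth being WAS, and in 31.8% of all genes with a window. The GATA-type string AGATAAG occurred in 0 of the 8 genes and in 3.27% of all genes with a window. These are matches of letters, counted in genes picked for their levels, and no binding was measured. The 250 bases before the start are printed for the 4 genes with the longer string, 5′ to 3′ on the strand of the gene, because they show where it lies. Capitals mark GAGGAAGT, or ACTTCCTC where it reads on the opposite strand.
CD53 chr1:110872898-110873147, plus strand: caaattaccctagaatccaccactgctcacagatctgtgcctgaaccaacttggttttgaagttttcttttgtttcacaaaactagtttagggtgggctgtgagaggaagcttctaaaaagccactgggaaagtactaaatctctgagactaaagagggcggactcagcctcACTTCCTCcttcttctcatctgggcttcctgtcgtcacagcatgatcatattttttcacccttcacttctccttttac
LCP1 chr13:46182178-46182427, minus strand: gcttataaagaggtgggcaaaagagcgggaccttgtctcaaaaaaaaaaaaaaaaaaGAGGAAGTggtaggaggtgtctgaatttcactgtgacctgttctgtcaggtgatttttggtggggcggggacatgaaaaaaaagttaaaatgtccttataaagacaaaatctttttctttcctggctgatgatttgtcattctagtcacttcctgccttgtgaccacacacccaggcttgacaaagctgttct
VAV1 chr19:6772458-6772707, plus strand: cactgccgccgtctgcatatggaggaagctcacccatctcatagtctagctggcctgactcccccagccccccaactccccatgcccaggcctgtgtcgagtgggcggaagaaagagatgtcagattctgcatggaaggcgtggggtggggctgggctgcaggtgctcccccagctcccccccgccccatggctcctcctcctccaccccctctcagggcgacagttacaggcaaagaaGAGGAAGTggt
BTK chrX:101390797-101391046, minus strand: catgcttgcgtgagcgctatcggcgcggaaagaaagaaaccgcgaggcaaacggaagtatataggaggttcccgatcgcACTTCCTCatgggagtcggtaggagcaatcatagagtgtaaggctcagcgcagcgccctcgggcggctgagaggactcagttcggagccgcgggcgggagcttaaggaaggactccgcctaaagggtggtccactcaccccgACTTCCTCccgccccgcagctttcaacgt
The match began 11 bases before the start of the printed window in VAV1, 78 in CD53 and 193 in LCP1, and BTK had 2 matches, at 171 and 29 bases. It read with the gene in VAV1 and LCP1 and on the opposite strand in CD53 and BTK. The BTK matches lay in the printed window. Another BTK window, chrX:101386142-101386441, belongs to a different start and had no GAGGAAGT. It had only the shorter GAGGAA, on the opposite strand and after that start.

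At the cell surface, PTPRC (CD45), the receptor phosphatase that frees SRC family kinases from an inhibitory phosphate, stood at 7.44 in ADARkd and 7.76 in SCR of K562. Its level was 3.03 in ADARkd and 3.04 in SCR of the arrays labelled HepG2. Both K562 arrays were therefore above both arrays labelled HepG2, by 4.42 between the ADARkd arrays and by 4.71 between the SCR arrays. CD53, a leukocyte tetraspanin that organises receptors in the membrane, had levels of 9.15 in ADARkd and 9.51 in SCR of K562, against 3.19 in ADARkd and 3.49 in SCR of the arrays labelled HepG2. LAPTM5, a lysosomal membrane protein that lowers the number of antigen receptors on lymphocytes, had 10.01 in ADARkd and 10.33 in SCR of K562, against 3.75 in ADARkd and 3.84 in SCR of the arrays labelled HepG2. For these 3 membrane proteins the mean difference between the lines was 4.56 (PTPRC), 5.99 (CD53) and 6.37 (LAPTM5), and in each line the SCR array had the higher level.

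Among the kinases, BTK, the Tec kinase of the B-cell receptor pathway, stood at 8.35 in ADARkd and 8.55 in SCR of K562, against 2.85 in ADARkd and 2.88 in SCR of the arrays labelled HepG2. PRKCB, a protein kinase C that diacylglycerol and calcium activate, stood at 8.65 in ADARkd and 8.96 in SCR of K562, against 3.51 in ADARkd and 3.55 in SCR of the arrays labelled HepG2. In both genes the SCR array of K562 was highest, and the arrays labelled HepG2 were under the median of all genes. LYN, a SRC family kinase of B cells and myeloid cells, was at 8.35 in ADARkd and 8.53 in SCR of K562 and at 6.99 in ADARkd and 6.93 in SCR of the arrays labelled HepG2. It was the 1 gene of the 10 kept in both lines. Mean differences between the lines were 5.59 for BTK, 5.28 for PRKCB and 1.48 for LYN.

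VAV1, a signalling protein of blood cells that SRC family and SYK kinases phosphorylate, stood at 5.87 in ADARkd and 5.89 in SCR of K562, and at 3.55 in both arrays labelled HepG2. WAS encodes WASP, which switches on actin branching and is mutated in Wiskott-Aldrich syndrome. Its levels were 5.02 in ADARkd and 4.95 in SCR of K562, against 4.30 in ADARkd and 4.25 in SCR of the arrays labelled HepG2. WAS was under the median of all genes on all 4 arrays and had the lowest line difference of the 10, at 0.71, against 2.33 for VAV1. LCP1 (L-plastin), which bundles actin filaments in leukocytes, stood at 10.15 in ADARkd and 10.22 in SCR of K562, against 2.88 in ADARkd and 2.87 in SCR of the arrays labelled HepG2. Its mean difference of 7.31 was number 3 from the highest among all 14232 genes.

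SPI1, which encodes PU.1, had levels of 6.24 in ADARkd and 6.32 in SCR of K562, against 4.64 in ADARkd and 4.55 in SCR of the arrays labelled HepG2. Its mean difference was 1.68, or 3.21-fold.

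**Figure D1:**
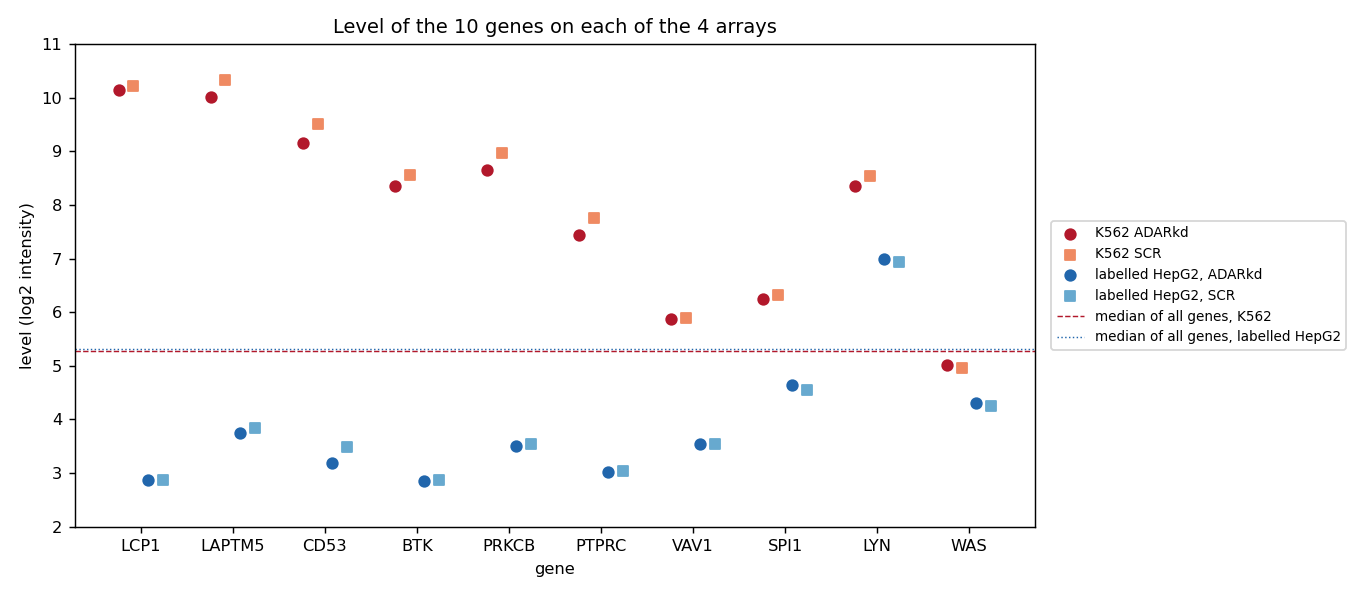
Level of each of the 10 genes (log2 of the deposited intensity, vertical axis) on each of the 4 arrays, with the median of all genes in each line as a horizontal line and genes in order of their line difference. In every gene both K562 arrays lie above both arrays labelled HepG2, and in WAS all 4 lie below the medians.

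The comparison of K562 with the arrays labelled HepG2 used values that had chosen the genes, so it is a description. In 9 of the 10 genes K562 was at least 2-fold higher, as were 6.84% of all 14232 genes, while 9.30% of all genes were at least 2-fold lower. The fold between the line means was 159 for LCP1, 82.8 for LAPTM5, 63.6 for CD53, 48.0 for BTK, 38.8 for PRKCB and 23.7 for PTPRC. These 6 genes were among the 25 highest line differences, at ranks 3, 5, 6, 8, 10 and 21. The fold was 5.04 for VAV1, 3.21 for SPI1, 2.79 for LYN and 1.63 for WAS, at ranks 210, 389, 493 and 1707. The median of the 10 differences was 4.92, against 0.20 for all genes. The median of all genes was 0.07 after quantile normalisation and 0.01 after cyclic loess.

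In 9 of the 10 genes the arrays labelled HepG2 lay under their median, where background can set a value, so the sizes and order of the folds are uncertain. With 16 added to every intensity before the log, the differences of LCP1, LAPTM5, CD53, BTK, PRKCB and PTPRC were 5.66, 5.29, 4.66, 3.97, 4.07 and 3.12, and the median of the 10 was 3.55. The count of genes at least 2-fold higher was 9 with that offset too. Of 9 measured T and B lymphocyte markers, 1 (CD7) was kept in K562 and 1, the same gene, on the arrays labelled HepG2. Their summed intensity was 171 to 186 in K562 and 156 to 159 on the arrays labelled HepG2. Of 7 measured monocyte and granulocyte markers, 1 (LYZ) was kept in K562 and 0 on the arrays labelled HepG2, with sums of 180 to 183 and 126 to 137. Of 5 measured megakaryocyte markers, 2 were kept in K562 and 1 on the arrays labelled HepG2. The sum of the 7 erythroid markers was 3222 to 3402 in K562 and 89.8 to 94.5 on the arrays labelled HepG2. In RNA of whole cultures, fewer cells of a type and less RNA per cell cannot be told apart, and the part of such cells in these levels was not tested.

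Each of the 10 genes belongs to a family, and its measured relatives did not share a common direction between the lines. The relatives were not split by tissue, and some are blood-cell genes too: CD37 was also on the list of leukocyte surface proteins. The counts therefore do not set blood-cell genes against genes of other tissues. Of 34 measured paralogs (40 listed), 4 were at least 2-fold higher in K562, 9 at least 2-fold lower and 21 in between, with a median difference of 0.01. Over all 14232 genes, 6.84% were at least 2-fold higher and 9.30% lower, with a median of 0.20. Of the 34 paralogs, 18 were kept in K562 and 21 on the arrays labelled HepG2. With cyclic loess the paralog counts were 2 higher and 10 lower with a median of -0.15, and with the offset of 16 they were 2 and 8. In the plastins, PLS3, the bundler of adherent and other non-blood cells, stood at 3.51 in ADARkd and 3.37 in SCR of K562, against 10.31 in ADARkd and 9.56 in SCR of the arrays labelled HepG2. The difference of PLS3 was -6.49, against 7.31 for LCP1, so the 2 plastins lay on opposite sides. Among receptor phosphatases PTPRM, a homophilic adhesion molecule, differed by -4.87 while PTPRC differed by 4.56. The tetraspanin CD9 differed by -2.03, against 5.99 for CD53.

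The paralogs of the intracellular members were spread more closely around 0 in some families and widely in others. Of the protein kinase C isoforms, PRKCH differed by -3.10, against 5.28 for PRKCB. N-WASP (WASL), the widely expressed relative of WASP, differed by -1.28, against 0.71 for WAS. VAV2 differed by -1.04 and LAPTM4A by -1.19, each opposite in sign to its relative of blood cells. The lowest paralog of BTK, the Tec kinase TXK, differed by 1.06, the lowest of LYN, YES1, by 0.13, and the lowest of SPI1, SPIC, by -0.07. Each named paralog is the one with the lowest difference of its family, so the contrast with the 10 genes is in part set by that choice, and the counts over all 34 are the fuller description.

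**Figure D2:**
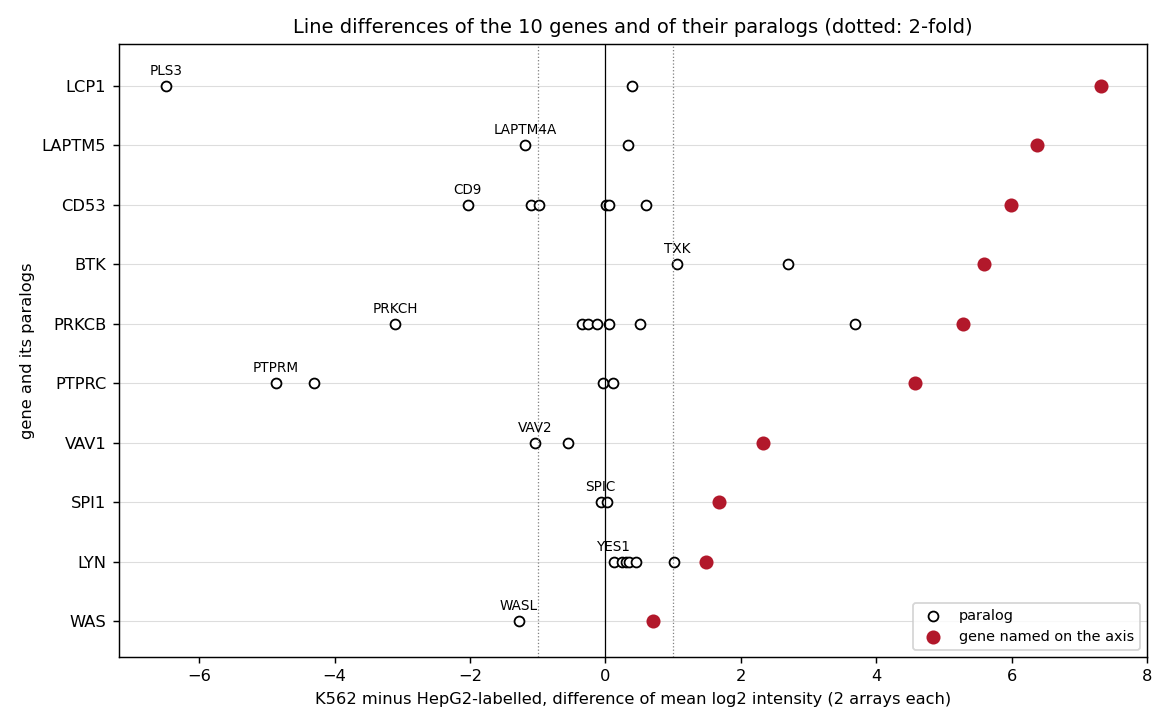
K562 minus HepG2-labelled difference of mean log2 intensity (horizontal axis, 2 arrays per line) for each of the 10 genes (filled) and its measured paralogs (open), 1 row per gene, with the lowest paralog named and dotted lines at 2-fold. LCP1 (7.31) and PLS3 (-6.49) lie at the right and left ends.

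Other genes of the same pathways were taken from lists drawn up with earlier results of these data known, though not gene by gene for how they moved. Over 3 lists, 64 of 79 genes were measured: 16 were at least 2-fold higher in K562, 4 at least 2-fold lower and 44 in between, with a median of 0.44. Over all 14232 genes, 6.84% were at least 2-fold higher and 9.30% lower, with a median of 0.20. Of the 64 genes, 28 were kept in K562 and 17 on the arrays labelled HepG2. With cyclic loess 14 of the 64 were higher and 5 lower, with a median of 0.24 against 0.01 for all genes. With the offset of 16 the counts for the 64 genes were 11 higher and 3 lower. Of 30 adaptors, kinases, lipases and phosphatases of receptor signalling, 6 were at least 2-fold higher, 1 was lower and the median was 0.43. SYK, the kinase next to the SRC family at immune receptors, differed by 3.71, the adaptor DOK3 by 3.14, the phosphoinositide kinase PIK3CG by 2.32 and the inositol phosphatase INPP5D (SHIP) by 2.05. The 1 gene at least 2-fold lower was MALT1, a paracaspase of the NF-kappa-B pathway, at -1.78, which was not among the 4 named by size and was chosen after its value was seen.

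Among 22 partners, antagonists and textbook targets of PU.1, 8 were at least 2-fold higher and 2 lower, with a median of 0.48. The count pools these kinds, and 11 of the 22 were kept in K562. Of the targets, LYZ (2.25) and CYBB (1.39) were higher. With the offset of 16 LYZ differed by 1.21 and CYBB by 0.90, less than 2-fold, and the counts of the list were 6 higher and 1 lower. The mean level of LYZ in K562 was 5.34, close to the median of 5.28. CSF1R (0.12), MPO (0.31), ITGB2 (0.32), CSF2RB (0.46), CSF3R (0.51) and NCF4 (0.55) were within 2-fold and under the median of K562. These targets were named after their values were seen. The 4 of that list with the largest differences were MYB (4.14), GATA1 (3.56), TAL1 (2.72) and LMO2 (2.45), all transcription regulators of blood progenitors or erythroid cells. The 2 lower ones were CEBPB (-1.88), a partner factor of myeloid cells, and TLR4 (-1.64), an innate receptor, both chosen after their values were seen. Of 13 other leukocyte surface proteins, 2 were higher, CD69 (4.23) and CD52 (1.56), 1 was lower, the adhesion receptor CD44 (-4.32), and the median was 0.36. Of these 13, 1 (CD69) was kept in K562 and 1 (CD44) on the arrays labelled HepG2, so most of these values lay where background can set them. CD52 was under the median in both lines and differed by 0.85 with the offset of 16, which is less than 2-fold. CD48 differed by 0.90.

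**Figure D3:**
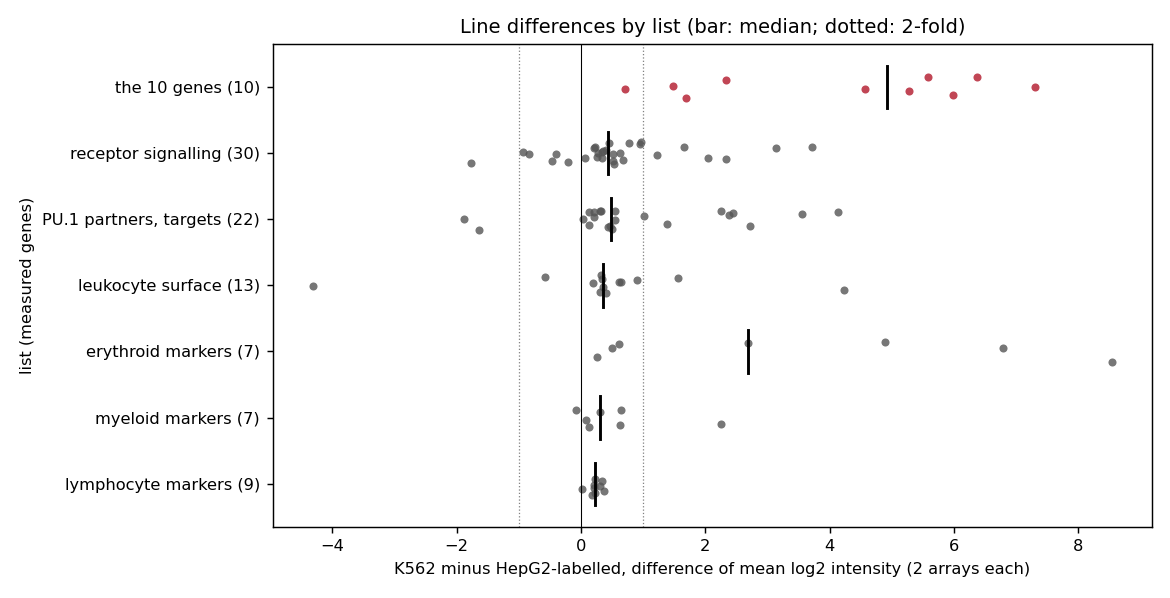
K562 minus HepG2-labelled difference of mean log2 intensity (horizontal axis) of every measured gene in 7 groups: the 10 genes, 3 pathway lists and 3 marker lists, with the bar at the median and dotted lines at 2-fold. The 10 genes have a median of 4.92 and the 3 pathway lists have medians of 0.36 to 0.48, against 0.20 for all genes. After cyclic loess the medians of the 3 pathway lists were 0.09 to 0.26, against 0.01 for all genes. The points are spread up and down at random within a row for visibility.

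The genes most like the 10 in their pattern were found by the Euclidean distance, over the 4 arrays, between each gene's centred levels and the mean centred profile of the 10. That profile was 1.98 in ADARkd and 2.16 in SCR of K562, against -2.08 in ADARkd and -2.05 in SCR of the arrays labelled HepG2. The 5 closest were MDK (distance 0.05), a heparin-binding growth factor, STAG3 (0.08), a cohesin subunit of meiosis, HEMGN (0.12), a nuclear protein of blood progenitors, LEF1 (0.12), a transcription factor of the Wnt pathway, and GALC (0.15), a lysosomal galactolipid hydrolase. PTPRC lay at 0.44 from the mean of the 10 and WAS at 3.43, so the profile stands for few of the genes closely. With 4 arrays, the measure is set almost wholly by the line difference.

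The knockdown comparison in K562 asked which transcripts differed where ADAR was lowered. No member was 2-fold apart: 0 of the 9 kept genes passed that size, as did 0.155% of the 7116 genes kept in K562, and over all genes without the filter the share was 0.211%. All 9 kept genes had a lower level in the ADARkd array, as did 66.7% of kept genes. CD53 stood at an intensity of 567 in ADARkd and 731 in SCR, which is 77.5% of SCR and a difference of -0.37. LAPTM5 had 1030 in ADARkd and 1285 in SCR (80.1%, -0.32), and PTPRC had 174 in ADARkd and 216 in SCR (80.4%, -0.31). PRKCB, at 403 in ADARkd and 498 in SCR (80.9%, -0.31), was the last of 4 genes at least 1.2-fold lower, a size chosen after the values were seen that 14.1% of kept genes reached.

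BTK differed by -0.20 and LYN by -0.18, while LCP1 (-0.08), SPI1 (-0.08) and VAV1 (-0.02) lay close to 0. WAS, which was not kept, differed by 0.06. Counted from the lowest difference among the 7116 kept genes, CD53 was number 382, LAPTM5 603, PRKCB 702, BTK 1666, LYN 1891, SPI1 3473, LCP1 3517 and VAV1 4398, and PTPRC lay between LAPTM5 and PRKCB. The SD of the differences over kept genes was 0.19, which is a spread over genes and not over replicates. The median of the 9 kept genes was -0.20, against -0.07 for all kept genes. After quantile normalisation these medians were -0.11 and 0.00, and after cyclic loess -0.19 and -0.02, while the 7 genes at or above the 75th percentile of level had a median of -0.31 as deposited. The number of the 10 genes below 0 was 9 as deposited, 8 after quantile normalisation, where VAV1 stood at 0.04, and 10 after cyclic loess, where WAS stood at -0.03.

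The difference between the K562 arrays moved with level over all genes. In 7116 genes under the median of K562 the median difference was 0.13 and 25.1% were below 0, and 1 of the 10 genes lay in that band. From the median to the 75th percentile (6.85) the median was -0.07 with 63.3% below 0, for 2 of the 10 genes. At or above the 75th percentile it was -0.08 with 70.1% below 0, for 7 of the 10, and the central 90% of these genes ran from -0.35 to 0.17. CD53 (-0.37) lay just outside that range, and LAPTM5, PTPRC and PRKCB lay inside it. The SD of log2 levels was 1.75 in the ADARkd array and 1.84 in the SCR array of K562. After quantile normalisation the median of every band was 0.00, and CD53, LAPTM5, PTPRC and PRKCB were at -0.28, -0.24, -0.23 and -0.23. After cyclic loess the same 4 genes were at -0.31, -0.25, -0.34 and -0.26.

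**Figure D4:**
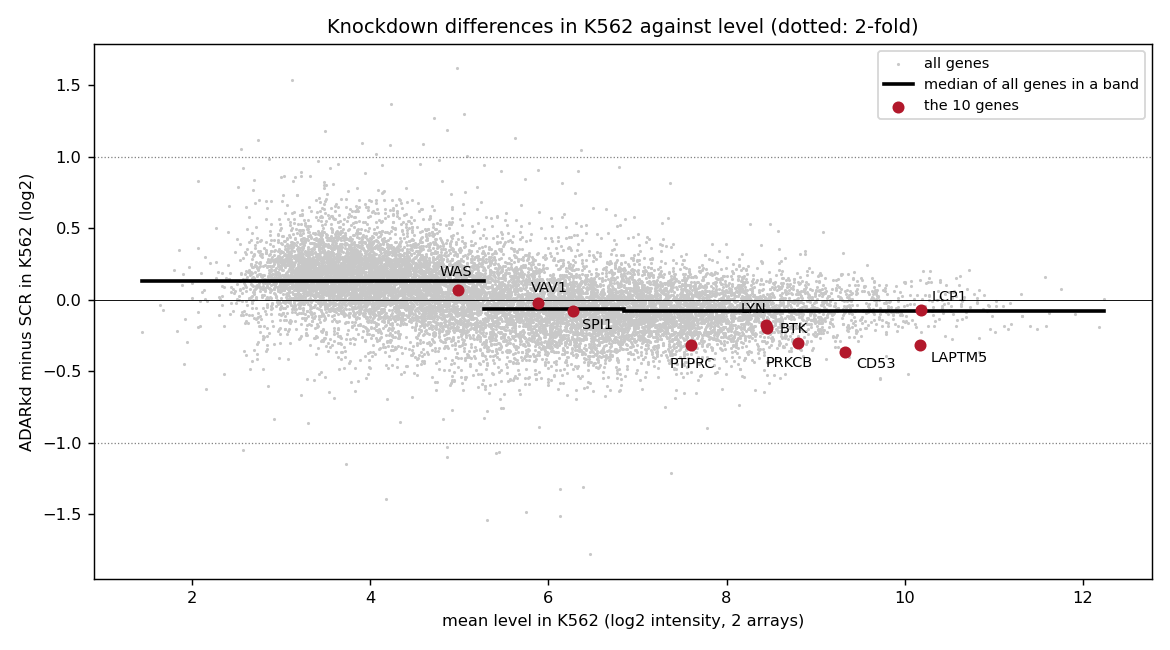
ADARkd minus SCR difference in K562 (log2, vertical axis) against the mean level in K562 (log2 intensity, horizontal axis) for all genes (grey) and the 10 genes (red, named), with black bars at the median of all genes in 3 level bands and dotted lines at 2-fold. The bars stand at 0.13, -0.07 and -0.08, and none of the 10 genes reaches a dotted line.

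Pathway genes outside the 10 were also within 2-fold in K562. Of the 64 measured genes of the 3 lists, 0 were 2-fold apart between the ADARkd and SCR arrays, 36 were below 0 and the median was -0.02. These figures used no filter on level, and 28 of the 64 genes were kept in K562. Because the difference moved with level, they cannot be set against the figures for the kept genes of the 10. The lowest of the receptor signalling list was DOK3 (-0.49) and the highest PTPRCAP (0.61), a partner of CD45. LYZ (-0.66) and NCF4 (0.43) had the largest differences among PU.1 partners and targets, and CD69 (-0.55) and TYROBP (0.30) among surface proteins. NCF4 and TYROBP were under the median of K562, where all genes had a median of 0.13 and a 95th percentile of 0.46. Erythroid markers summed to 3222 in the ADARkd array and 3402 in the SCR array of K562, with a median difference of 0.03 and 3 of 7 below 0. These figures also used no filter on level. The 4 kept markers differed by -0.08 (HBZ), -0.03 (RHAG), -0.33 (ALAS2) and 0.13 (KLF1). The others were under the median of K562 and all above 0.

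On the arrays labelled HepG2, ADAR was lowered as well, and none of the 10 genes was 2-fold apart, as were 2.99% of all genes and 4.03% of the 7116 kept there. LYN, the 1 kept gene, had an intensity of 127 in ADARkd and 122 in SCR, a difference of 0.06 that turned to -0.06 after quantile normalisation and -0.09 after cyclic loess. CD53 had the largest difference, -0.29, from intensities of 9.15 in ADARkd and 11.2 in SCR, both under the median of all genes. The other 8 ran from -0.09 (LAPTM5) to 0.08 (SPI1), and 5 of the 10 were below 0. That number was 4 after quantile normalisation and 6 after cyclic loess. The median of the 10 was -0.01, against 0.01 for all genes and 0.11 for kept genes, whose SD was 0.47. Whether the knockdown differences differ between the lines could not be tested with 1 array per group. Of the 10 fibroblast and stromal markers, 5 were 2-fold apart on these arrays (3 with the offset of 16), with a median of -0.82. The summed intensity of the 6 epithelial markers was 2241 in ADARkd and 1497 in SCR, and their part in the values of LYN and CD53 was not tested.

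**Figure D5:**
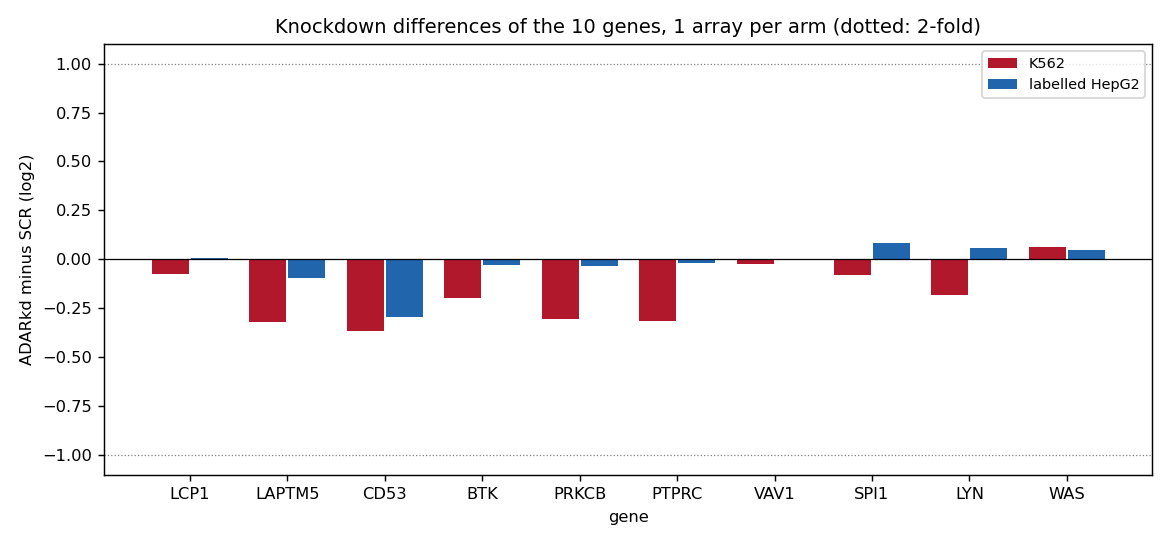
ADARkd minus SCR difference (log2, vertical axis) of each of the 10 genes in K562 (left bar) and on the arrays labelled HepG2 (right bar), from 1 array per arm, with no error bar because no group had replicates and dotted lines at 2-fold. In K562 the bars run from -0.37 (CD53) to 0.06 (WAS), and on the arrays labelled HepG2 from -0.29 (CD53) to 0.08 (SPI1).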

How the data were processed

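Total RNA was labelled with biotin and hybridised to exon arrays of Affymetrix, as the labels' protocols say. The deposited table gives, for each of 17881 transcript clusters, 1 linear intensity per array. The submitters' processing notes name RMA and hg18, without versions; further steps were not given in the sources used here. By the platform annotation 14432 clusters had 1 symbol, 2408 had several and 1041 had none; only the first kind was named, and 14404 of its symbols were found in RefSeq by Entrez number, with 0 changed. Log2 was taken without an offset. For 197 genes with more than 1 cluster the brightest was used; each of the 10 genes had 1. Line differences compare means of 2 arrays, K562 minus HepG2, and knockdown differences are ADARkd minus SCR. No test was run. The 10 genes, 20 gene lists and the promoter strings were chosen with earlier results of these data known. Named list genes are the 4 with the largest line difference and 2 with the largest K562 knockdown difference of a list, and of each paralog family the one with the lowest line difference. Alternatives were quantile normalisation and cyclic loess (limma 3.58.1, R 4.3.3), an offset of 16, other filters, single arms and the mean of all clusters. The counting steps were checked on simulated data. Another pathway list is not reported here. Hg18 coordinates were not used, and promoter coordinates are those of RefSeq.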

Additional observations from a re-analysis of the deposited data

Results flagged for a closer look

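In 3 genes of the related families and pathways, the ADARkd minus SCR differences had opposite signs in the 2 lines, each larger than 1 SD over the kept genes of its line (0.19 in K562 and 0.47 on the arrays labelled HepG2). The difference between the lines was not tested, since each group had 1 array. The share of all genes that meet this rule was not counted, so 3 cannot be called many or few. None of the 10 genes showed this, but only 1 of them was kept on the arrays labelled HepG2. Their largest difference there, -0.29 in CD53, was smaller in size than 0.47. SKAP2, an adaptor of SRC family kinases, differed by -0.45 in K562 and by 1.31 on the arrays labelled HepG2, at 7.79 in ADARkd and 6.48 in SCR. PLS1, a plastin of epithelia and paralog of LCP1, differed by -0.26 in K562 and by 0.62 on the arrays labelled HepG2. PTPRM, a paralog of PTPRC, differed by 0.20 in K562, where its levels were under the median of all genes, and by -0.72 on the arrays labelled HepG2. In K562 PTPRM differed by 0.03 after quantile normalisation and by 0.08 with 16 added before the log, both under 0.19. After cyclic loess it differed by 0.23, above 0.19, so its place here rests on the scaling. PLS1 on the arrays labelled HepG2 differed by 0.47 with that offset, at the limit itself.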

How the results depend on the processing

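The 1 summary value that moved by more than the spread used (0.24 on the log2 scale, the SD over genes of each arm around the mean of both arms) was the median line difference of the 10 genes. It was 3.55 with an offset of 16, against 4.92 as deposited, and 4.78 to 5.06 from the ADARkd and SCR arrays alone. With that offset all 10 single differences were lower, by shifts of -1.65 (LCP1) to -0.11 (LYN), 9 of them by more than that spread, and none changed sign. Between the lines the count at 2-fold was 9 of 10 under every alternative that used all 10 genes. It was 9 of the 9 genes at or above the median in either line, and 7 of the 7 left by a filter at the 75th percentile. Such filters pass genes through the line where they were chosen to be high, so these 2 counts add no support. For the knockdown the count was 0 in each line under every alternative run. The median knockdown difference in K562 ran from -0.31 to -0.11. In K562 the sign of 1 gene changed after quantile normalisation and of 1 after cyclic loess, and on the arrays labelled HepG2 of 3 and 3. No paired analysis was possible because each group had 1 array, other than setting the lines side by side within an arm, which gave the values for single arms. Probe background was not examined, which limits all values under the median, and no alternative stands in for replicate arrays.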

Other observations

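Of 97 measured paralogs and pathway genes of the 10, 2 were at least 2-fold apart between the ADARkd and SCR arrays labelled HepG2, as were 2.99% of all genes, and 0 between those of K562, as were 0.211% of all genes. Beside SKAP2 this was the tetraspanin CD82, a relative of CD53. CD82 stood at 5.59 in ADARkd and 7.10 in SCR of the arrays labelled HepG2 (-1.51), and at 5.31 in ADARkd and 5.40 in SCR of K562 (-0.09). It was picked with its values in view. FYN, the SRC family kinase with the lowest K562 knockdown difference among the paralogs of LYN, was at 7.63 in ADARkd and 8.14 in SCR of K562 (-0.51), and at 6.84 in ADARkd and 6.90 in SCR of the arrays labelled HepG2 (-0.06), and was chosen in the same way.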
